A study of Mus musculus with 6 samples.

Results

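Iron enters most animal cells on transferrin, which binds the transferrin receptor at the cell surface and is carried into endosomes, where the metal is reduced and moved to the cytosol. There it is used, stored in ferritin, passed to mitochondria for haem and iron-sulfur clusters, or exported through ferroportin. A pair of RNA-binding proteins, the iron regulatory proteins, read the iron supply and act on transcripts that carry iron-responsive elements, holding the receptor's transcript stable and blocking translation of ferritin when iron is short. Pigment cells use iron like other dividing cells, and melanin itself binds the metal.

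The 10 genes described here cover these steps of iron uptake, storage and sensing: Tfrc, Steap3, Slc11a2 and Slc25a37 for uptake and delivery, Fth1 for storage, Slc40a1 for export, Hmox1 for release of iron from haem, and Hfe, Aco1 and Ireb2 for sensing. They were taken by gene symbol from probe sets that the platform annotation pairs with a single gene, and all 10 had exactly 1 such probe set among the 19938 named genes tested. The treated group is Melan-Ink4a, a melanocyte line from C57BL/6J mouse skin that is null for the Ink4a-Arf tumour suppressor locus, kept with 10 nM NRG1-beta1 for 21 days (3 arrays). NRG1 is the growth factor neuregulin 1, a ligand of the receptor ERBB3. The comparison group is the same line without NRG1 (3 arrays), for which the labels give no matching culture time. Cells of both groups grew in 10% serum, a source of transferrin, with the phorbol ester TPA at 200 nM and cholera toxin at 200 pM, so every value below was measured in the presence of both agents. TPA binds protein kinase C and cholera toxin raises cyclic AMP, and neither pathway was measured here. RNA was taken at 90% confluence and 200 ng was hybridised to an Affymetrix Mouse Gene 1.0 ST array per sample, and levels are the deposited log2 values. A single line was used. Whether replicate arrays stand for separate cultures is not stated in the labels, and the p-values therefore speak only of the spread among these samples, part or all of which may be technical.

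Array medians over all probe sets lay between 6.99 and 7.07 on the log2 scale, and arrays correlated across genes at 0.996 to 0.997 within a group and at 0.981 to 0.986 between groups. All 10 melanocyte markers examined lay above the median level of the tested genes (7.17), and 9 of them were lower with NRG1 (summed log2 level 113.7 to 114.1 with NRG1 and 120.3 to 120.7 untreated). All 7 measured proliferation markers were higher (64.4 to 66.8 with NRG1 and 55.7 to 57.3 untreated). Of 10 macrophage markers, which were included because macrophages express ferroportin and haem oxygenase, 9 lay below the median level, and 1, Cd68, was higher, a call that ended under 7 of the 17 alternative settings (summed level 60.7 to 61.2 with NRG1 and 60.4 to 61.9 untreated). Of 6 measured erythroid markers all lay below it and 1 was lower (36.8 to 37.4 with NRG1 and 37.5 to 38.2 untreated), and of 8 keratinocyte markers all lay below it with no call. Of 8 fibroblast markers 3 lay above it and 1, Col1a1, was higher (53.7 to 54.9 with NRG1 and 53.0 to 54.5 untreated). The part of these other genes in the iron gene values was not tested.

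Promoter sequences from RefSeq (GRCm38.p6) were held for 6 of the 10 genes, in 11 windows from 250 bases before to 50 after a transcript start. Those of Tfrc, whose transcript rose steeply, and of Hfe, the gene that fell, are shown because each holds a short motif among the 4 searched on both strands. The Tfrc stretch, chr16:32608646-32608905 on the plus strand, ends 10 bases past the more upstream of its annotated starts, and the capitals mark ACGTG, the core of the hypoxia response element, at bases -2 to 3 counted from the start as 1. The Hfe stretch is the 250 bases before its start, chr13:23710855-23711104 on the minus strand, and the capitals mark a match to TGACNNNGC, the core of the antioxidant response element, at bases -67 to -59.
Tfrc promoter: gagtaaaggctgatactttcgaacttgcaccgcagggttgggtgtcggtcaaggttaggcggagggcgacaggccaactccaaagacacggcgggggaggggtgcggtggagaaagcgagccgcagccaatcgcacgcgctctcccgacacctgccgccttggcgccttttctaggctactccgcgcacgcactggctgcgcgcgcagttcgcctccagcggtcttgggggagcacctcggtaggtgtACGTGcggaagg
Hfe promoter: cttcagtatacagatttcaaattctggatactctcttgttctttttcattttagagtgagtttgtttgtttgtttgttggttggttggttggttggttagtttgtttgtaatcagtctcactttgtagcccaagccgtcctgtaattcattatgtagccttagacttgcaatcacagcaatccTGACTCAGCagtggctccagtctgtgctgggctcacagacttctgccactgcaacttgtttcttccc
The Hfe match overlaps one to TGANTCA, the AP-1 motif, and the second Tfrc window holds the same ACGTG as the first. ACGTG occurred in 19.6% of all 32851 promoter windows, TGACNNNGC in 12.4%, TGANTCA in 7.81% and the E-box CACGTG, which contains ACGTG, in 7.15%. No other match to these motifs was found in the windows of the 6 genes.

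With NRG1, 6 of the 10 iron genes rose and 1 fell (limma, Benjamini-Hochberg adjusted p under 0.05 over all genes tested), where 12.3% of all tested genes rose and 8.56% fell, 20.9% in all. Over all tested genes 2461 rose and 1707 fell, but 2257 rose and 2396 fell after quantile normalization over the tested genes, where 5 of the 10 iron genes rose and 1 fell. All of the 10 but Slc40a1 lay above the median level, whereas the shares of all tested genes include low-level genes. Without genes below that level 2628 genes rose and 1814 fell, more calls from fewer genes, and 5 of the iron genes rose and 1 fell. The changes were of very unequal size. Slc40a1, for the iron exporter, rose 3.90-fold and Tfrc, for the main importer, 3.11-fold, ranking at 53 and 102 of all tested genes by absolute change, and 1.93% of all tested genes were called with a change of 2-fold or more. The other 4 rises, those of Hmox1, Slc11a2, Steap3 and Slc25a37, were of 1.16-fold to 1.32-fold. Hfe fell, and Fth1, Aco1 and Ireb2 did not pass the test. The median difference of the 10 genes was 0.23 on the log2 scale, against -0.029 for all tested genes, and their median absolute difference was 0.26, against 0.10. In 8 of the 10 genes the NRG1 and untreated arrays did not overlap, which held for 36.7% of all tested genes. These contrasts set 10 genes chosen with earlier results of these data known against genes of all levels, and do not test the set. Since RNA was taken from whole cultures, a change in the share of cells with a transcript cannot be told apart from a change in its amount per cell.

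**Figure D1:**
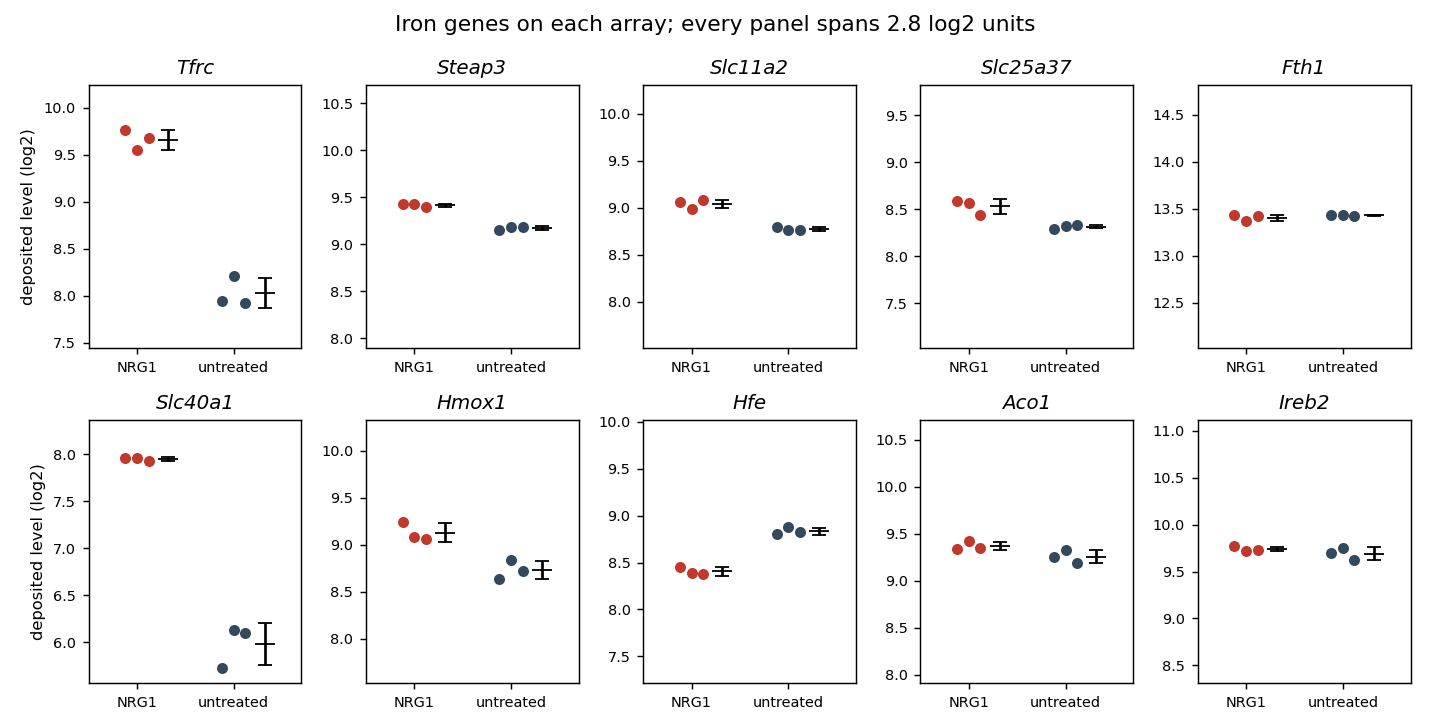
Deposited log2 level of each iron gene on every array, with NRG1 arrays on the left of each panel and untreated arrays on the right. Points are arrays, bars are the mean and SD (n = 3 each), and every panel spans the same range. Tfrc and Slc40a1 show groups far apart, while the points of Fth1 lie between 13.37 and 13.44 in both groups.

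Among the genes of uptake, Tfrc encodes transferrin receptor 1, the protein that takes transferrin-bound iron into the cell. Its level was 9.76, 9.55 and 9.68 in the NRG1 arrays, against 7.95, 8.21 and 7.92 in the untreated arrays. The groups were separated by 1.34 or more between any NRG1 and any untreated array, and untreated replicate 2 lay closest to the treated cells. The difference was 1.64 ± 0.089 (SE; limma, adjusted p = 7.02e-07), with group means of 9.66 ± 0.107 with NRG1 and 8.03 ± 0.16 untreated (SD, n = 3 each). The call held under all 17 alternative settings, with differences from 1.58 to 1.73. Tfrc is a gene of dividing cells in many tissues, and the 7 proliferation markers that rose here had a median difference of 1.32, whose part in the Tfrc value was not tested.

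Steap3 and Slc11a2 act downstream of the receptor in the endosome. Steap3 encodes the reductase that converts ferric to ferrous iron, and Slc11a2 encodes DMT1, the transporter that moves ferrous iron into the cytosol. Steap3 was at 9.42, 9.42 and 9.40 in the NRG1 arrays, against 9.15, 9.19 and 9.18 in the untreated arrays. Replicates were even, with an SD of 0.0149 with NRG1 and 0.018 untreated, and the groups did not overlap. The difference of 0.24 ± 0.056 (SE) passed the test (limma, adjusted p = 0.0109), though not with untreated replicate 1 left out (0.23, adjusted p = 0.052). Slc11a2 was at 9.06, 8.99 and 9.08 with NRG1, against 8.80, 8.76 and 8.76 untreated. Its groups did not overlap, and the difference was 0.27 ± 0.058 (SE; limma, adjusted p = 0.0077).

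Slc25a37 encodes mitoferrin 1, which imports iron into mitochondria. It was at 8.58, 8.57 and 8.44 with NRG1, against 8.29, 8.32 and 8.33 untreated, and NRG1 replicate 3 came within 0.11 of the nearest untreated array. The difference of 0.22 ± 0.063 (SE) passed narrowly (limma, adjusted p = 0.0342). This was the least stable call of the 7, ending under 9 of 17 settings, among them each fit without a single array other than NRG1 replicate 3 (adjusted p from 0.054 to 0.129), quantile normalization over the tested genes (0.15, adjusted p = 0.0785) and the adjustment over all probe sets (adjusted p = 0.0691). Its relative Slc25a28, for mitoferrin 2, differed by -0.095 and did not pass (limma, adjusted p = 0.328).

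**Figure D2:**
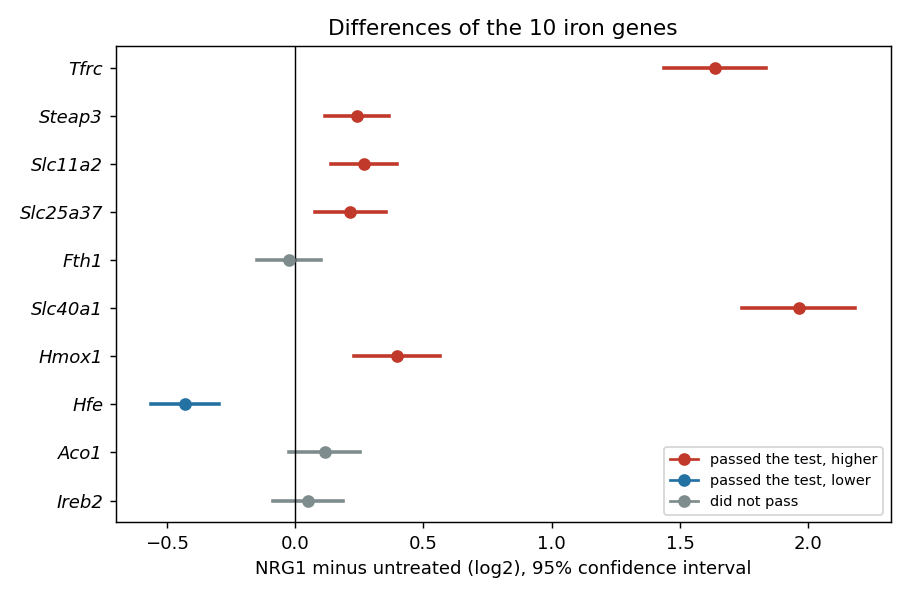
Difference of each iron gene (NRG1 minus untreated, log2) with its 95% confidence interval from limma. Slc40a1 and Tfrc stand at 1.96 and 1.64, the 4 smaller rises lie between 0.22 and 0.40, Hfe lies at -0.43, and the intervals of Fth1, Aco1 and Ireb2 include 0.

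For storage and export the picture was uneven. Fth1 encodes the ferritin heavy chain, whose ferroxidase activity loads iron into the ferritin shell. It was at 13.43, 13.37 and 13.42 with NRG1, against 13.43, 13.44 and 13.42 untreated, and the groups overlapped. The difference was -0.024 ± 0.056 (SE; limma, adjusted p = 0.822), with a 95% interval from -0.15 to 0.10. Fth1 lay at the 99.96 percentile of level, where array signals can be compressed, so a difference could be understated. Its sign also depended on the scaling, at -0.18 after quantile normalization over all probe sets (limma, adjusted p = 0.0284) and 0.15 after quantile normalization over the tested genes (adjusted p = 0.0579). Ferritin genes have many processed pseudogenes in the mouse, and no source used here says which copies the probes can tell apart. The light chain gene Ftl1 differed by 0.021 (limma, adjusted p = 0.861).

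Slc40a1 encodes ferroportin, the only iron exporter known in mammals. It was at 7.95, 7.96 and 7.93 in the NRG1 arrays, against 5.73, 6.13 and 6.10 in the untreated arrays. The treated arrays were nearly identical, while untreated replicate 1 lay below the other untreated arrays. The difference was 1.96 ± 0.099 (SE; limma, adjusted p = 3.83e-07), with means of 7.95 ± 0.0173 with NRG1 and 5.99 ± 0.223 untreated (SD, n = 3 each). The untreated level lay under the median level of the tested genes, where differences can be understated too. The difference was between 1.83 and 2.13 under the 16 settings that could test the gene. Ferroportin passes iron on to copper-containing ferroxidases, and the gene of one of these, Cp (ceruloplasmin), was at 7.53, 7.69 and 7.67 with NRG1, against 5.64, 5.48 and 5.58 untreated. Cp rose 4.18-fold (2.06 ± 0.069, SE; limma, adjusted p = 2.58e-08), whereas the membrane ferroxidase gene Heph differed by -0.074 at a low level (adjusted p = 0.584).

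By the Pearson correlation of the 6 log2 values, the tested genes with an ordinary symbol most like Slc40a1 were Slc6a6, Lims2, Uhrf1, Tram2 and Nup93 (r from 0.998 to 0.999). Their differences ran from 0.49 for Slc6a6, a taurine transporter gene, to 1.45 for Uhrf1, a gene of DNA methylation maintenance. In each of the 5, as in Slc40a1, untreated replicate 1 was the lowest array. Another 164 tested genes had r over 0.99, and with 2 groups of 3 such values mostly restate the group difference.

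Hmox1 encodes haem oxygenase 1, which opens the haem ring and frees its iron. It was at 9.24, 9.08 and 9.06 with NRG1, against 8.64, 8.83 and 8.72 untreated. The groups did not overlap, with NRG1 replicate 1 the highest array and untreated replicate 1 the lowest. The difference was 0.40 ± 0.075 (SE; limma, adjusted p = 0.00358). Hmox2, the constitutive form, differed by -0.014 (adjusted p = 0.914).

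Among the genes of sensing, Hfe encodes an MHC class I-like protein that binds transferrin receptor 1 and is mutated in hereditary haemochromatosis. It was at 8.46, 8.38 and 8.37 with NRG1, against 8.80, 8.87 and 8.83 untreated. The groups were well apart, and Hfe fell by 0.43 on the log2 scale, with an SE of 0.059 (limma, adjusted p = 0.00046). Aco1 encodes iron regulatory protein 1, which serves as cytosolic aconitase when it holds an iron-sulfur cluster. It was at 9.34, 9.42 and 9.36 with NRG1, against 9.25, 9.33 and 9.19 untreated. The ranges just failed to overlap, by 0.0116 on the log2 scale, and the difference of 0.11 ± 0.063 (SE) did not pass (limma, adjusted p = 0.247), with a 95% interval from -0.025 to 0.25. Ireb2, for iron regulatory protein 2, was at 9.77, 9.72 and 9.73 with NRG1, against 9.70, 9.75 and 9.62 untreated. These groups overlapped, with a difference of 0.051 ± 0.061 (SE; limma, adjusted p = 0.633) and an interval from -0.086 to 0.19. Iron acts on these sensors mainly through the cluster of the one and the stability of the other, which transcript levels do not show.

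**Figure D3:**
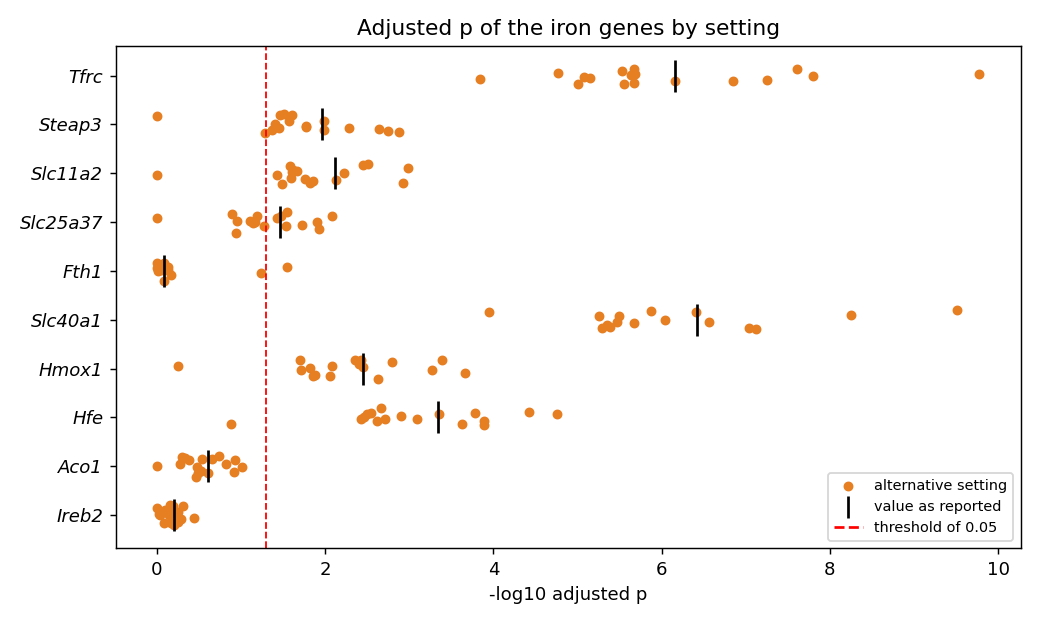
Adjusted p of each iron gene (minus log10, so larger is smaller p) under the alternative settings, with the reported value as a black bar and the threshold of 0.05 dashed. Tfrc and Slc40a1 lie right of the threshold under every setting that tested them, and Aco1 and Ireb2 lie left of it under all 17. The other genes fall on both sides, Slc25a37 with 8 of 17 settings to the right and Fth1 with 1.

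The 4 smaller rises and the fall of Hfe were all of 1.35-fold or less. Tested by limma treat for a change beyond 1.2-fold, none of these 5 passed, while Tfrc and Slc40a1 did.

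Beyond the 10 genes, 106 further genes from 9 lists of iron biology were tested, of which 24 rose and 12 fell. That is 22.6% and 11.3%, against 12.3% and 8.56% of all tested genes, and their median difference was 0.019. In each of the 9 lists most tested genes lay above the median level, whereas the shares of all tested genes include low-level genes. Without genes below that level 22 of the further genes rose and 14 fell, and 2628 and 1814 of all genes. Calls were therefore more frequent among brighter genes, and the shares of all tested genes are a low yardstick for these lists. The 12 falls became 6 without NRG1 replicate 1, while those over all tested genes went from 1707 to 1153. The balance also depended on the scaling, with 25 rises and 8 falls after median centring and 18 rises and 16 falls after quantile normalization over the tested genes. Over all tested genes median centring gave 2606 rises and 1375 falls, and that quantile normalization 2257 and 2396. Counts by list follow, each to be read beside the 12.3% and 8.56% of all tested genes, low-level ones included. In uptake and reduction, 2 of 12 rose, 2 fell and 8 did not pass. Steap2, another reductase gene of the Steap3 family, rose by 0.44 (limma, adjusted p = 0.00202), but by 0.22 with its probe sets averaged (adjusted p = 0.0539). Slc39a14, for the transporter ZIP14, rose by 0.24, a call lost without NRG1 replicate 2 or 3 or untreated replicate 1 (limma, adjusted p = 0.0608, 0.0704 and 0.0961) and after quantile normalization over the tested genes (0.18, adjusted p = 0.0669). The falls were those of Mcoln1, for an endolysosomal cation channel (-0.23), and of Vps35, for a retromer subunit that returns receptors from endosomes (-0.22). The call of Mcoln1 ended without NRG1 replicate 1 or 3 or untreated replicate 2 or 3 (limma, adjusted p from 0.0961 to 0.145), and that of Vps35 without any array but untreated replicate 3 (0.052 to 0.11). Both falls also missed the threshold after median centring (Mcoln1 -0.20, adjusted p = 0.0861, and Vps35 -0.20, adjusted p = 0.0625) and with the adjustment over all probe sets (0.0928 and 0.0553), and that of Mcoln1 with array weights (-0.17, adjusted p = 0.0556).

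In storage, ferritin turnover and export, 1 of 9 rose, 1 fell and 7 did not pass. The rise was that of Cp, and the fall that of Pcbp2, for a cytosolic iron chaperone (-0.23; limma, adjusted p = 0.0207), whose call ended without any of the NRG1 arrays or without untreated replicate 1 (0.0554 to 0.0778). The Pcbp2 difference was -0.20 after median centring (adjusted p = 0.0581) and -0.10 after quantile normalization over the tested genes (adjusted p = 0.163), and its level, like that of Fth1, was near the top of the scale, at the 99.89 percentile. Ncoa4, the receptor that brings ferritin to autophagy, differed by -0.026 (adjusted p = 0.809).

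In sensing and systemic control, 1 of 11 rose, 3 fell and 7 did not pass. Hif1a, for an oxygen-regulated factor whose hydroxylases need iron, rose 1.46-fold (limma, adjusted p = 0.000102), while its relative Epas1 fell by 0.34 (adjusted p = 0.00181). Fbxl5, for the ubiquitin ligase subunit that marks iron regulatory protein 2 for breakdown when iron is plentiful, was at 8.99 ± 0.082 with NRG1 and 9.34 ± 0.033 untreated (SD, n = 3 each). It fell by 0.35 (limma, adjusted p = 0.00292), without overlap of the groups. Hamp2, for a hepcidin peptide, fell by 0.24 (adjusted p = 0.0188), a call lost without NRG1 replicate 1 or 2 or untreated replicate 1 or 3 (0.0536 to 0.0849). Hamp, the main hepcidin gene, was at a low level and differed by -0.052 (adjusted p = 0.727).

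**Figure D4:**
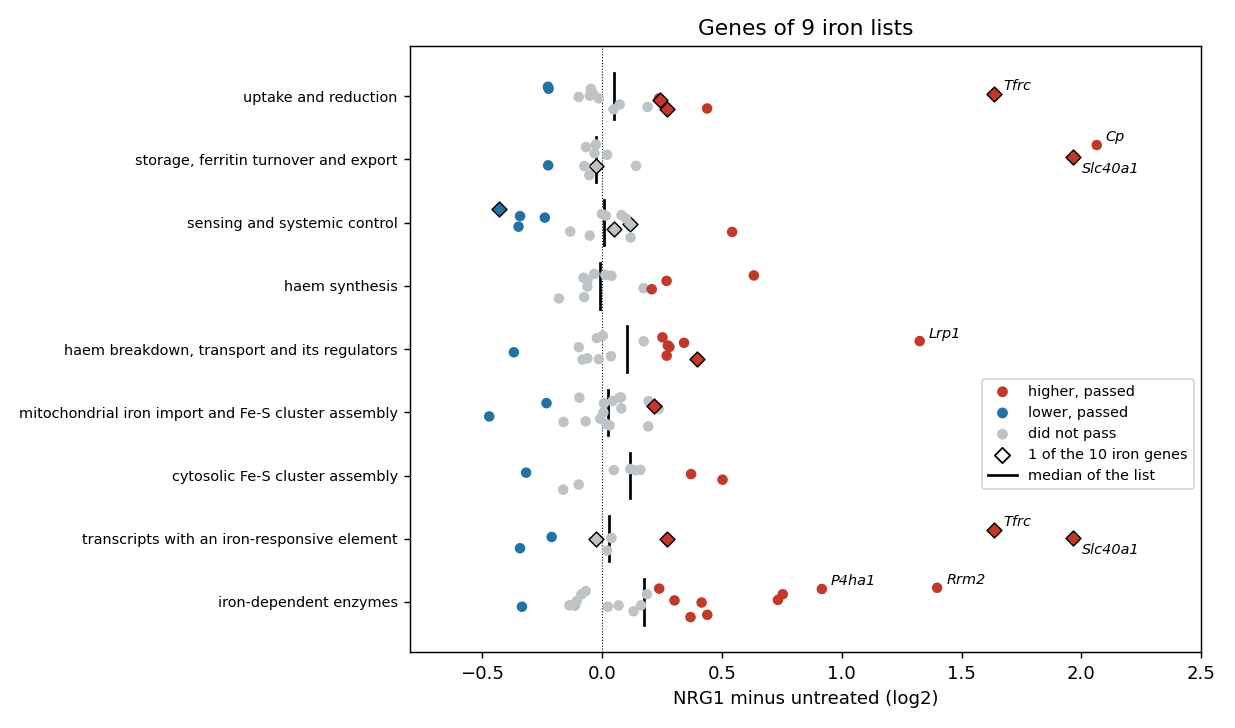
Difference (NRG1 minus untreated, log2) of each tested gene in 9 iron lists, 1 list per line, with the list median as a black line. Red and blue points passed the test, grey points did not, and diamonds are the 10 iron genes. Most points lie within 0.5 of 0, and Cp, Slc40a1, Tfrc, Rrm2 and Lrp1 lie beyond 1.

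In haem synthesis, 3 of 12 genes rose and 0 fell (limma, with 4 higher and 1 lower at an unadjusted p under 0.05). Abcb6, for a porphyrin transporter, rose 1.55-fold (limma, adjusted p = 0.000424), and held its call under all 17 settings. Alad, for an early enzyme of the pathway, rose by 0.27 (adjusted p = 0.0171), a call lost without NRG1 replicate 1 or 3 or untreated replicate 1 (0.0504 to 0.0823) and after quantile normalization over the tested genes (0.20, adjusted p = 0.0668). Tmem14c, for a mitochondrial porphyrin carrier, rose by 0.21 (adjusted p = 0.037), a call lost without any array but untreated replicate 2 (0.0575 to 0.154). Tmem14c also missed the threshold after quantile normalization over all probe sets (0.17, adjusted p = 0.0562) or over the tested genes (0.15, adjusted p = 0.0869), and with the adjustment over all probe sets (adjusted p = 0.0706). Alas1, the gene of the rate-limiting enzyme outside red cells, differed by -0.062 (adjusted p = 0.519), and Fech, for the enzyme that inserts iron, by -0.077 (adjusted p = 0.432).

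In haem breakdown and transport, 6 of 15 rose, 1 fell and 8 did not pass. Lrp1, for a large endocytic receptor that clears haem-hemopexin among many other ligands, was at 9.46, 9.46 and 9.44 with NRG1, against 8.09, 8.17 and 8.12 untreated. It rose 2.51-fold (limma, adjusted p = 1.47e-07). Flvcr1, described as a haem exporter, fell by 0.37 (adjusted p = 0.00107), while its relative Flvcr2 rose by 0.27 (adjusted p = 0.0253). The Flvcr2 call ended without NRG1 replicate 1 or 2 or untreated replicate 2 or 3 (limma, adjusted p from 0.055 to 0.1) and with the adjustment over all probe sets (0.068). Abcg2, for an efflux pump that also carries porphyrins, rose by 0.34 at a low level (adjusted p = 0.00621). Bach1, the haem-sensing repressor of Hmox1, rose by 0.27 (adjusted p = 0.0187), and Nfe2l2, for the activator NRF2, differed by -0.061 (adjusted p = 0.568). The Bach1 call ended without NRG1 replicate 2 or untreated replicate 1 (limma, adjusted p = 0.0757 and 0.0875), after quantile normalization over the tested genes (0.21, adjusted p = 0.0579) and with the adjustment over all probe sets (0.0516). Maff, for a small partner of both, rose by 0.28 (adjusted p = 0.0308), a call lost without any array but untreated replicate 3 (0.0617 to 0.0855) or with the adjustment over all probe sets (0.0817).

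In mitochondrial iron-sulfur cluster assembly, 0 of 17 genes rose and 2 fell (limma, with 2 higher and 3 lower at an unadjusted p under 0.05). Hscb, for a co-chaperone that hands on new clusters, fell by 0.47 (limma, adjusted p = 0.000545). Fdx1, for a ferredoxin, fell by 0.23 (adjusted p = 0.0164), which no longer passed when NRG1 replicate 1 was left out (adjusted p = 0.0747). The scaffold gene Iscu and the sulfur donor gene Nfs1 differed by 0.018 and 0.0053, neither called and both of a sign that turned with the setting. In the cytosolic branch, 2 of 9 rose, 1 fell and 6 did not pass. Glrx3, for a glutaredoxin that chaperones iron, rose by 0.50 (limma, adjusted p = 0.00832), and Ciao2a, whose product matures iron regulatory protein 1, by 0.37 (adjusted p = 0.00146). Mms19, for a subunit that targets clusters to DNA enzymes, fell by 0.32 (adjusted p = 0.00323).

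Of the transcripts known to carry an iron-responsive element, besides Tfrc, Slc40a1 and Slc11a2, which rose, and Fth1, which did not pass, 0 of 4 further genes rose and 2 fell (limma, with 0 higher and 2 lower at an unadjusted p under 0.05). The falls were those of Epas1 and of Cdc14a, for a phosphatase (-0.21; adjusted p = 0.0404), whose call ended without any array but untreated replicate 3 (0.0559 to 0.134), after median centring (-0.19, adjusted p = 0.0939) and with the adjustment over all probe sets (0.0791). Elements at the start of a transcript, as in ferritin and ferroportin, control translation, and those at its end, as in Tfrc, control stability. Tfrc, with elements at its end, and Slc40a1, with an element at its start, both rose. The ferritin genes Fth1 and Ftl1, with elements at the start, did not pass (-0.024 and 0.021), and Epas1 and Cdc14a fell. Transcripts with these elements thus did not share 1 direction.

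Among iron-dependent enzymes, 9 of 20 rose, 1 fell and 10 did not pass, where 12.3% of all tested genes, low-level ones included, rose and 8.56% fell. Rrm2, for the iron-holding subunit of ribonucleotide reductase, rose 2.64-fold, its partner Rrm1 1.69-fold and P4ha1, for a collagen prolyl hydroxylase subunit, 1.89-fold (limma, adjusted p = 2.75e-06, 0.000183 and 2.13e-06). Prim2, for the primase subunit that holds a cluster, rose by 0.73 (adjusted p = 0.0002). Phf8, for a histone demethylase, fell by 0.33 (adjusted p = 0.00264). Several of these genes belong to DNA replication, and the proliferation markers rose in the same arrays, whose part in these values was not tested.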

How the data were processed

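The deposited table holds log2 values, 1 column per array and 0 columns without a sample, for which the authors used RMA and GCOS, per the submitters' processing notes; their versions and settings and the genome build are not given in the sources used. That the scale is log2 follows from the range of the values. RMA values carry no read depth, and 3 arrays per group limit the precision. Gene names came from GEO's platform annotation, and Entrez numbers served to bring the symbols up to those of RefSeq (GRCm38.p6). Of 35557 probe sets, 21789 had 1 gene, 1621 several and 12147 none named here. The brightest probe set by 6-array mean was tested for each of 19938 genes, with no filter on level.

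The test was limma's moderated test (version 3.58.1, R 4.3.3; lmFit, then eBayes), 2-sided and without covariates, and p-values were adjusted by Benjamini and Hochberg's method across the 19938 genes, with a threshold of 0.05. Differences are NRG1 minus untreated. An exact permutation test of a single gene cannot go below p = 0.1 here. The 10 genes, the 9 lists (116 of 124 genes tested) and the alternatives were chosen with earlier results of these data known. From each list up to 3 genes called in each direction, by size, were to be named, and genes outside that rule (Heph, Ftl1, Hmox2, Slc25a28, Ncoa4, Hamp, Alas1, Fech, Flvcr2, Bach1, Nfe2l2, Iscu, Nfs1, Prim2) were added for their role after their values were seen. On simulated data with the spread of these genes (20 simulations, 200 changed genes each, 19938 genes), log2 changes of 0.25 were recovered in 22.2% of cases, of 0.5 in 97.5% and of 1 in 100%. In the data 4168 genes were called, so the adjustment was less strict there than in the simulations. These shares therefore do not carry over to the data. The alternatives were 3 scalings, 2 filters on dim genes, other treatments of probe sets, other variance models, a replicate block, leaving out each array, and a minimum change. Another background correction needs probe-level signals and was not run.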

Additional observations from a re-analysis of the deposited data

How the results depend on the processing

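Of the 10 iron genes, 4 to 6 rose in the fits without 1 array and 1 fell in each. Over all tested genes 1907 to 2596 rose and 1153 to 1801 fell in those fits. Tfrc, Slc40a1, Hmox1, Slc11a2 and Hfe kept direction and call under every setting that tested them, except that the last 3 did not pass against a minimum change of 1.2-fold. That test (limma treat) called 2 rises and 0 falls among the 10 genes (2 higher and 1 lower at an unadjusted p under 0.05), 8 rises and 0 falls among the 106 further genes (12 and 2 at an unadjusted p under 0.05), and 883 rises and 342 falls over all genes. Quantile normalization over all probe sets raised the falls among the 10 to 2, by adding Fth1, with 2494 rises and 1882 falls over all genes. The sign of Fth1 turned with median centring (0.00038) and with quantile normalization over the tested genes (0.15), and that of Ireb2 with the last of these (-0.022), none of them called. Among genes that never passed, Hmox2 turned with median centring (0.011; -0.063 to 0.018 without 1 array), Hamp with array weights (0.033; -0.12 to 0.010), Iscu with quantile normalization over all probe sets (-0.016) or the tested genes (-0.042) and with averaged probe sets (-0.11; -0.024 to 0.080), and Nfs1 with both quantile normalizations (-0.013 and -0.055; -0.053 to 0.089). The cause was not tested. Of 37 named genes outside the 10 that passed, 23 kept the call under every setting that tested them besides the minimum change. Quantile normalization over the tested genes, chosen after the data were seen, gave 2257 rises and 2396 falls over all genes, 48.5% rises against 59.0% in the deposited values, which gave 2461 and 1707. Array weights gave 2881 falls. Among the further genes, 17 to 25 rose and 6 to 10 fell without 1 array. Whether replicate numbers pair the samples is not stated in the labels. Deviations of same-numbered arrays correlated at -0.095, -0.16 and 0.074, which cannot settle it. With the replicate number as a block, 5 of the 10 genes rose and 1 fell, 20 and 8 of the further genes, and 2198 and 1411 of all genes; the calls of Slc25a37, Mcoln1, Vps35, Pcbp2, Tmem14c, Maff and Cdc14a ended. Signal near the top of the scale (Fth1) and below the median level (Slc40a1 and Cp untreated) limits those differences.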
